A study of Mus musculus with 48 samples.

Results

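The striatum of 8 Q140 x Msh3+/- mice was compared by RNA-seq with that of 8 wild-type (WT) mice, 4 females and 4 males in each group, out of 48 mice of 6 genotypes in all. The members were taken by the genotype labels, and all 16 libraries were used. Q140 x Msh3+/- mice are, by those labels, heterozygous for Q140, a knock-in in which an expanded CAG repeat sits in the mouse Htt gene, and carry 1 remaining Msh3 allele. WT mice carry neither change. Values of the other groups of 8 mice are set beside them where they bear on the comparison. These are Q140 mice with both Msh3 alleles, Q140 x Msh3-/- mice with none, and Msh3+/- and Msh3-/- mice without Q140. All groups are on a C57BL/6 background and are given as 12 months old, although their extraction protocol places the dissection at 6 months. The comparison asks how far the striatal transcriptome of Q140 mice that have lost a single Msh3 allele lies from that of WT mice.

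Huntingtin with a long polyglutamine stretch, encoded by the expanded CAG repeat, causes Huntington's disease, in which the spiny projection neurons of the striatum are hit early. These neurons receive dopamine, fall into a direct pathway that expresses the dopamine receptor Drd1 and an indirect pathway that expresses Drd2, and are known for high levels of cyclic nucleotide signalling proteins. Msh3 is a subunit of MutSβ, a mismatch repair complex that recognises small DNA loops and promotes lengthening of CAG repeats in somatic cells. Repeat length was not measured in these data.

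Library totals were 48.7 ± 6.41 M counts in Q140 x Msh3+/- mice and 48.5 ± 6.88 M in WT mice (M, 1e+06 counts, SD, n = 8 each), and no 2 libraries were identical. The Q140 x Msh3+/- female replicate 1 had the highest score of all 48 libraries, 44.9, on the first component of what genotype and sex left unexplained, which held 9.29% of that variance. A Q140 x Msh3-/- male and a Msh3-/- male followed with 41.3 and 34.3. C1qa, C1qb, C1qc, Hspa4, Phf2os1 and Trp53, among the genes named by rule, lost their call without this female. Of the 16 libraries compared, the WT female replicates 3 and 4 have names with another prefix than the other 14.

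The targeted gene was examined first. Msh3 (ENSMUSG00000014850, GRCm38 chromosome 13, 92211872 to 92355003, minus strand) had a lowest, median and highest level of 68.4, 75.4 and 81.5 CPM (counts scaled by TMM factors to a library of 1e+06) in mice labelled Q140 x Msh3+/-, against 26.4, 29.3 and 30.9 CPM in WT mice. Every mouse with the label was above every WT mouse, by a log2 fold change of 1.37 (SE 0.035, adjusted p = 4.8e-36, edgeR quasi-likelihood test with Benjamini-Hochberg adjustment, as for all adjusted p-values here). The direction is opposite to a loss of RNA from the allele labelled as lost. The counts are per gene and the structure of the altered allele is not given in the sources used here, so they do not show how much intact Msh3 message was made. Group names below are the labels' genotypes. Htt (ENSMUSG00000029104, GRCm38 chromosome 5, 34761740 to 34912534, plus strand) had 207, 221 and 238 CPM in Q140 x Msh3+/- mice and 217, 226 and 237 CPM in WT mice. The groups overlapped and Htt was not called (log2 fold change -0.03, SE 0.034, adjusted p = 0.591), with a sign that turned under scaling to total counts (0.04).

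Large parts of the striatal transcriptome still differed from WT with a single Msh3 allele lost, but mostly by small amounts. Of 19714 genes tested, 4360 passed an adjusted p of 0.05, or 22.1%; 2126 were higher (10.8%) and 2234 were lower (11.3%) in Q140 x Msh3+/- mice. The called genes had a median absolute log2 fold change of 0.23 (quartiles 0.15 to 0.38), and 2597 of them, or 59.6%, differed by less than 1.2-fold. At least 2-fold apart as well as called were 173 genes (0.878% of those tested), 86 of them higher (0.436%) and 87 lower (0.441%). The 8 mice of each group did not overlap at all for 976 genes (4.95%), 381 higher (1.93%) and 595 lower (3.02%). Protein-coding genes made up 3961 of the calls, 26.1% of the 15177 tested. The split between directions rests on the scaling: with TMM factors the median log2 fold change of all genes was 0.0084, while scaling to total counts moved it to 0.0825 and gave 5100 higher and 1248 lower genes.

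Side by side, Q140 mice with both Msh3 alleles differed from the same WT mice at 6506 genes (33%), and Q140 x Msh3-/- mice at 1239 genes (6.28%), 574 higher (2.91%) and 665 lower (3.37%). Msh3+/- mice without Q140 differed at 2 genes (0.0101%), Msh3 itself and its neighbour F2r. These comparisons share the WT libraries, so their counts are listed without a test of overlap. Set directly against Q140 mice, Q140 x Msh3+/- mice differed at 260 genes (1.32%), 166 higher (0.842%) and 94 lower (0.477%).

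**Figure D1:**
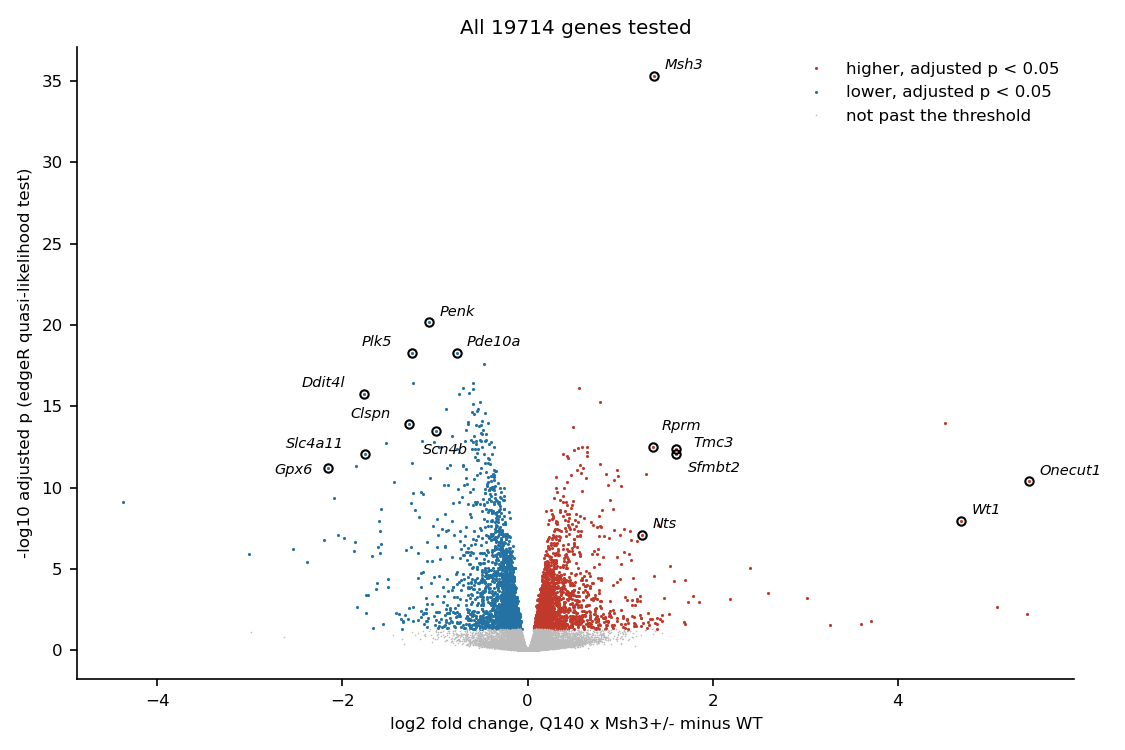
Each point is a gene, with its log2 fold change (Q140 x Msh3+/- minus WT) on the horizontal axis and minus log10 of the adjusted p on the vertical axis; red genes were called higher, blue genes lower, and circled genes are named. Msh3 stands highest, Penk, Pde10a and Plk5 lead the lower genes, and Onecut1 and Wt1 have the largest fold changes among the genes labelled.

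Markers of several cell types other than projection neurons were lower as well, and these values belong beside every group of genes described below. TMM factors were 1.006 to 1.038 in Q140 x Msh3+/- mice and 0.969 to 0.987 in WT mice, so the sums below depend on the scaling. The summed level of the 14 astrocyte markers was 5462 to 6013 CPM in Q140 x Msh3+/- mice and 6367 to 6917 CPM in WT mice, without overlap. Of the 14, 5 fell (35.7%, against 11.3% of all genes tested), led by Glul (log2 fold change -0.29) and Slc1a2 (-0.27), the glutamine synthetase and the main glutamate transporter of astrocytes. Total counts gave 3 lower and 1 higher astrocyte marker, and 9 lower blood vessel, 4 lower interneuron and 4 lower oligodendrocyte markers. The sums were not compared under total counts. Blood vessel markers (endothelial and mural) were lower at 10 of 12 genes (83.3%, against 11.3% of all genes tested), such as Flt1 (-0.47), Cldn5 (-0.45) and Rgs5 (-0.31). Their sum was 329 to 371 CPM in Q140 x Msh3+/- mice against 389 to 481 CPM in WT mice. Of 12 interneuron markers 5 fell (41.7%, against 11.3% of all genes tested), including Nos1 (-0.29) and Chat (-0.26). Their sums were 374 to 440 CPM in Q140 x Msh3+/- mice and 452 to 495 CPM in WT mice. Myelin and oligodendrocyte genes fell at 7 of 13 markers (53.8%, against 11.3% of all genes tested), such as Mal (-0.42) and Mobp (-0.38). Their sums overlapped (5190 to 6473 CPM in Q140 x Msh3+/- mice, 5879 to 7054 CPM in WT mice). Of 14 microglial markers 3 were called (21.4%, against 22.1% of all genes): the complement genes C1qa, C1qb and C1qc fell by 0.23, 0.23 and 0.17 on the log2 scale. None of the 3 passed without the Q140 x Msh3+/- female replicate 1 (-0.17, -0.18 and -0.12) or without WT female replicate 2 (-0.17, -0.17 and -0.12), nor under scaling to total counts. The summed level of the 14 markers overlapped, at 469 to 625 CPM in Q140 x Msh3+/- mice and 584 to 718 CPM in WT mice. C1qa also lost its call without Q140 x Msh3+/- male replicate 1 (-0.21), WT female replicate 3 (-0.21) or WT male replicate 1 (-0.22). Of 10 markers of oligodendrocyte precursors, Enpp6 (0.48) and Lhfpl3 (0.15) rose, a share near the 22.1% called over all genes, and the list's median was -0.053. The call of Lhfpl3 was lost, at 0.12 to 0.15, without any of the Q140 x Msh3+/- replicates F2, M1, M3 or M4 (F female, M male) or of the WT replicates F1, F2, M2, M3 or M4, and the sums overlapped (723 to 847 CPM in Q140 x Msh3+/- mice, 707 to 828 CPM in WT mice).

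Choroid plexus and ependymal markers gave no call among 9 genes, and their sums overlapped (41.2 to 81.6 CPM in Q140 x Msh3+/- mice, 41.6 to 79.9 CPM in WT mice). Of 10 cortical neuron markers Camk2n1, a gene also abundant in striatum, fell (-0.38) and Cux2 rose (0.34), whereas the cortical marker Slc17a7 (0.18) was not called. The cortical sum was 1067 to 1142 CPM in Q140 x Msh3+/- mice and 1259 to 1520 CPM in WT mice, most of it from Camk2n1. Without that gene the sums overlapped, at 47.4 to 70.3 CPM in Q140 x Msh3+/- mice and 47.5 to 64.1 CPM in WT mice. Of 9 markers of septal, pallidal and thalamic neurons only Nkx2-1 was called (-0.23), and it lost its call without WT male replicate 3 (-0.19). Their sums were 56.4 to 79.2 CPM in Q140 x Msh3+/- mice and 61.9 to 82.9 CPM in WT mice. No listed marker was at 0 in all 16 libraries. In whole tissue, fewer cells of a type and less RNA per cell cannot be told apart, and the part of cell composition in the results below was not tested.

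Genes of dopamine and cyclic nucleotide signalling fell almost as a block. Of 35 genes on this list 31 fell and 1 rose, 91.4% called against 22.1% of all genes. Their median log2 fold change was -0.44 against 0.0084 over all genes tested. This list and the others were chosen with earlier results of these data known, so such shares are a description and not a test. Under scaling to total counts the split was 27 lower and 1 higher. In 25 of the 35 every Q140 x Msh3+/- mouse was below every WT mouse, against 3.02% of all genes tested. Pde10a, the phosphodiesterase most typical of spiny projection neurons, had 1416, 1577 and 1849 CPM (lowest, median, highest) in Q140 x Msh3+/- mice and 2554, 2751 and 2872 CPM in WT mice. The groups lay far apart, at a log2 fold change of -0.77 (SE 0.046, adjusted p = 4.96e-19). Adcy5, the main adenylyl cyclase of these neurons, had 1163, 1302 and 1473 CPM in Q140 x Msh3+/- mice and 1776, 1940 and 2137 CPM in WT mice (-0.59, SE 0.039, adjusted p = 3.58e-17). Ppp1r1b, which encodes the dopamine-regulated phosphatase inhibitor DARPP-32, had 1441, 1537 and 1668 CPM in Q140 x Msh3+/- mice and 2095, 2287 and 2502 CPM in WT mice (-0.59, SE 0.04, adjusted p = 8.62e-17). Again no mouse of either group reached the range of the other.

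Further down the same cascade, Arpp21 (-0.70), Arpp19 (-0.64) and Ppp1r1a (-0.56), which encode phosphoproteins or phosphatase inhibitors regulated by protein kinase A, fell. The G protein regulators Rgs14 (-0.88), Rgs4 (-0.68) and Rgs9 (-0.57) fell, as did the phosphodiesterases Pde1b (-0.49), Pde7b (-0.43) and Pde2a (-0.19). Ryr1, a calcium release channel of intracellular stores, fell by 1.24 on the log2 scale and Itpr1, the IP3-gated store channel, by 0.50. Changes were small in the G protein that couples Drd1 to the cyclase, with Gnal at -0.14 and its partner Gng7 at -0.18. Prkacb, a catalytic subunit of protein kinase A, was the single member that rose (0.11), and Pde4b (-0.11), Prkar2b (-0.04) and Ppp1r2 were not called.

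**Figure D2:**
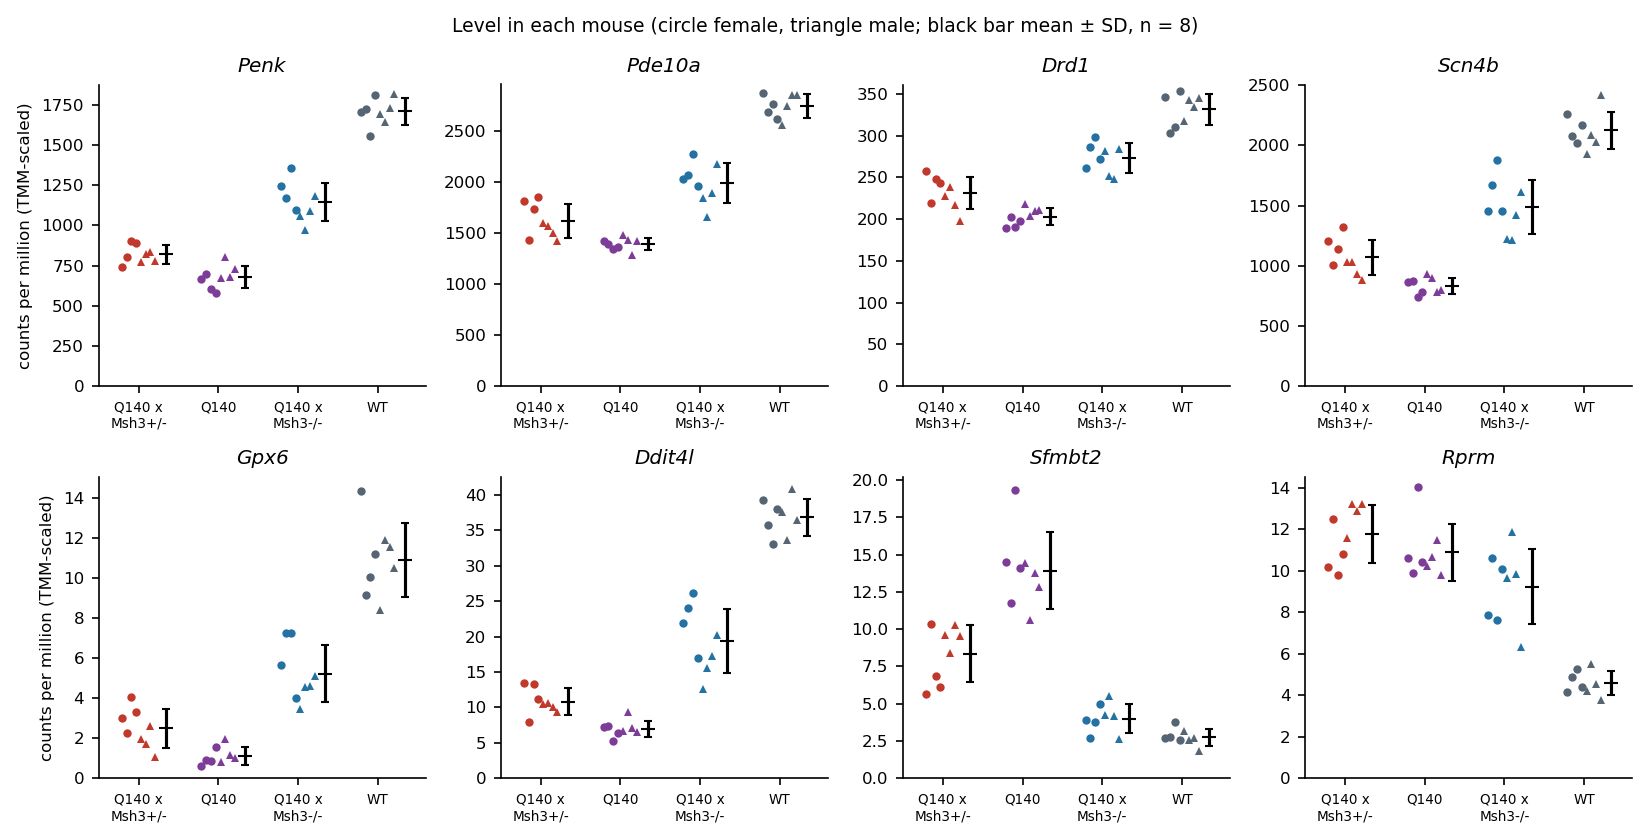
Each point is a mouse (circles females, triangles males) and each black bar a mean with its SD over 8 mice; the vertical axes are TMM-scaled CPM and start at 0. In all 8 genes every Q140 x Msh3+/- mouse lies outside the range of the WT mice; Rprm has medians of 12.1 CPM in Q140 x Msh3+/- mice and 10.5 CPM in Q140 mice, while Sfmbt2 and Gpx6 sit between Q140 and WT.

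Receptors of spiny projection neurons were lower in most cases. Of 30 tested, 19 fell and 3 rose (73.3% called, against 22.1% of all genes). Their median log2 fold change was -0.30, and the same split was found with total counts. Drd1 had 198, 233 and 258 CPM in Q140 x Msh3+/- mice and 303, 339 and 353 CPM in WT mice (-0.52, SE 0.042, adjusted p = 1.55e-14). Drd2 had 182, 194 and 231 CPM in Q140 x Msh3+/- mice and 273, 301 and 309 CPM in WT mice (-0.59, SE 0.043, adjusted p = 7.67e-16). Receptors of both output pathways were thus below the WT range in every mouse. Adora2a, the adenosine receptor of indirect-pathway neurons, had 229, 261 and 292 CPM in Q140 x Msh3+/- mice and 360, 408 and 473 CPM in WT mice (-0.65, SE 0.064, adjusted p = 5.58e-11). The muscarinic receptor Chrm4 (-0.55), the orphan receptor Gpr6 (-0.55), the cannabinoid receptor Cnr1 (-0.86) and the G protein-coupled receptor Mas1 (-1.25) fell too. The serotonin receptor Htr2c (0.68), the purinergic receptor P2ry1 (0.47) and Gpr149 (0.56) rose, and Oprm1 (-0.07), Oprk1 (-0.11) and Drd3 (-0.04) were not called.

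The neuropeptide precursors did not move together: of 16 tested, 2 rose and 3 fell (31.2% called, against 22.1% of all genes). Penk, the enkephalin precursor of indirect-pathway neurons, had 744, 814 and 905 CPM in Q140 x Msh3+/- mice and 1558, 1717 and 1816 CPM in WT mice. Its highest Q140 x Msh3+/- mouse was far below the lowest WT mouse, at a log2 fold change of -1.06 (SE 0.054, adjusted p = 6.38e-21). Tac1, the substance P precursor of direct-pathway neurons, was slightly higher, with 160, 176 and 191 CPM in Q140 x Msh3+/- mice and 134, 157 and 173 CPM in WT mice (0.19, SE 0.053, adjusted p = 0.00516). The groups overlapped, and the call was lost when only libraries with the common name prefix were kept, which leaves out WT female replicates 3 and 4 (0.14). Pdyn, the dynorphin precursor of the same neurons, overlapped fully at 99.8, 121 and 146 CPM in Q140 x Msh3+/- mice and 93.6, 118 and 134 CPM in WT mice (0.07, SE 0.076, adjusted p = 0.549). Nts, the neurotensin precursor, had 4.29, 4.98 and 6.08 CPM in Q140 x Msh3+/- mice and 1.32, 2.06 and 2.92 CPM in WT mice (1.24, SE 0.165, adjusted p = 7.65e-08). Crh, which encodes corticotropin-releasing hormone, was rare, with 103 counts over the 8 Q140 x Msh3+/- libraries and 500 over the 8 WT libraries, a ratio of 0.205 (95% exact interval 0.164 to 0.254, counting error only).

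Among pathway markers the indirect list fell at 4 of 6 genes (Penk, Adora2a, Drd2 and Gpr6, median -0.57). That is 66.7% called, against 22.1% of all genes. Its summed level was 1316 to 1570 CPM in Q140 x Msh3+/- mice and 2410 to 2772 CPM in WT mice. That sum includes Penk, at 744 to 905 CPM and 1558 to 1816 CPM, and was not computed without it. The direct list was mixed, with Chrm4 and Drd1 lower and Tac1, Isl1 (0.27) and Eya1 (0.39) higher among 8 genes. It had 62.5% called, against 22.1% of all genes, and a median of 0.05. The direct sums overlapped, at 628 to 761 CPM in Q140 x Msh3+/- mice and 746 to 849 CPM in WT mice. Sp9 (0.04) and Ptprm (-0.07) on the first list, and Ebf1 (0.03) and Slc35d3 (-0.09) on the second, were not called. The difference between the pathways was not tested.

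Transcription factors of spiny projection neurons split into 10 that fell and 4 that rose among 27 (51.9% called, against 22.1% of all genes). Under scaling to total counts 7 rose. The falls included Rxrg, a retinoid X receptor (-0.55), Foxp1 (-0.33), Bcl11b (-0.26) and Meis2 (-0.31), the last 3 being factors of striatal neuron development. Meis2 had 471, 524 and 539 CPM in Q140 x Msh3+/- mice and 604, 637 and 684 CPM in WT mice, without overlap. Ikzf2 (0.41), Isl1 (0.27), Meis1 (0.24) and Mef2c (0.14) rose, and Foxp2 (0.04), Six3 (0.05) and Dlx5 (0.07) were not called.

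Ion channel genes of these neurons fell at 18 of 30 members and rose at none (60% called, against 22.1% of all genes). Total counts gave 15 lower and 2 higher. Scn4b, the beta4 subunit of voltage-gated sodium channels, had 885, 1034 and 1319 CPM in Q140 x Msh3+/- mice and 1927, 2084 and 2423 CPM in WT mice (-0.99, SE 0.074, adjusted p = 3.27e-14). Potassium channel genes that fell included Kcnh4 (-0.71), Kcnab1 (-0.47) and Kcnq5 (-0.38), and the calcium channel subunit genes Cacnb2 (-0.39) and Cacna1e (-0.34) fell with them. Scn2a1 (-0.08), Scn8a (-0.03) and Kcnma1 (-0.05) were not called. Of 26 glutamate and GABA receptor subunits, 7 fell and none rose (26.9% called, against 22.1% of all genes), among them Gabrd (-0.43), Grik2 (-0.43) and the NMDA receptor subunits Grin2b (-0.23) and Grin1 (-0.18). Total counts gave 5 lower and 9 higher, so a direction for this family depends on the scaling. Immediate early and plasticity genes were called at 5 of 21 members (23.8%, near the 22.1% of all genes), each lower: Egr2 (-1.15), Homer1 (-0.68), Egr3 (-0.51), Jun (-0.33) and Ier5 (-0.32). Fos (0.28), Arc (-0.11) and Npas4 (-0.34) were not called.

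**Figure D3:**
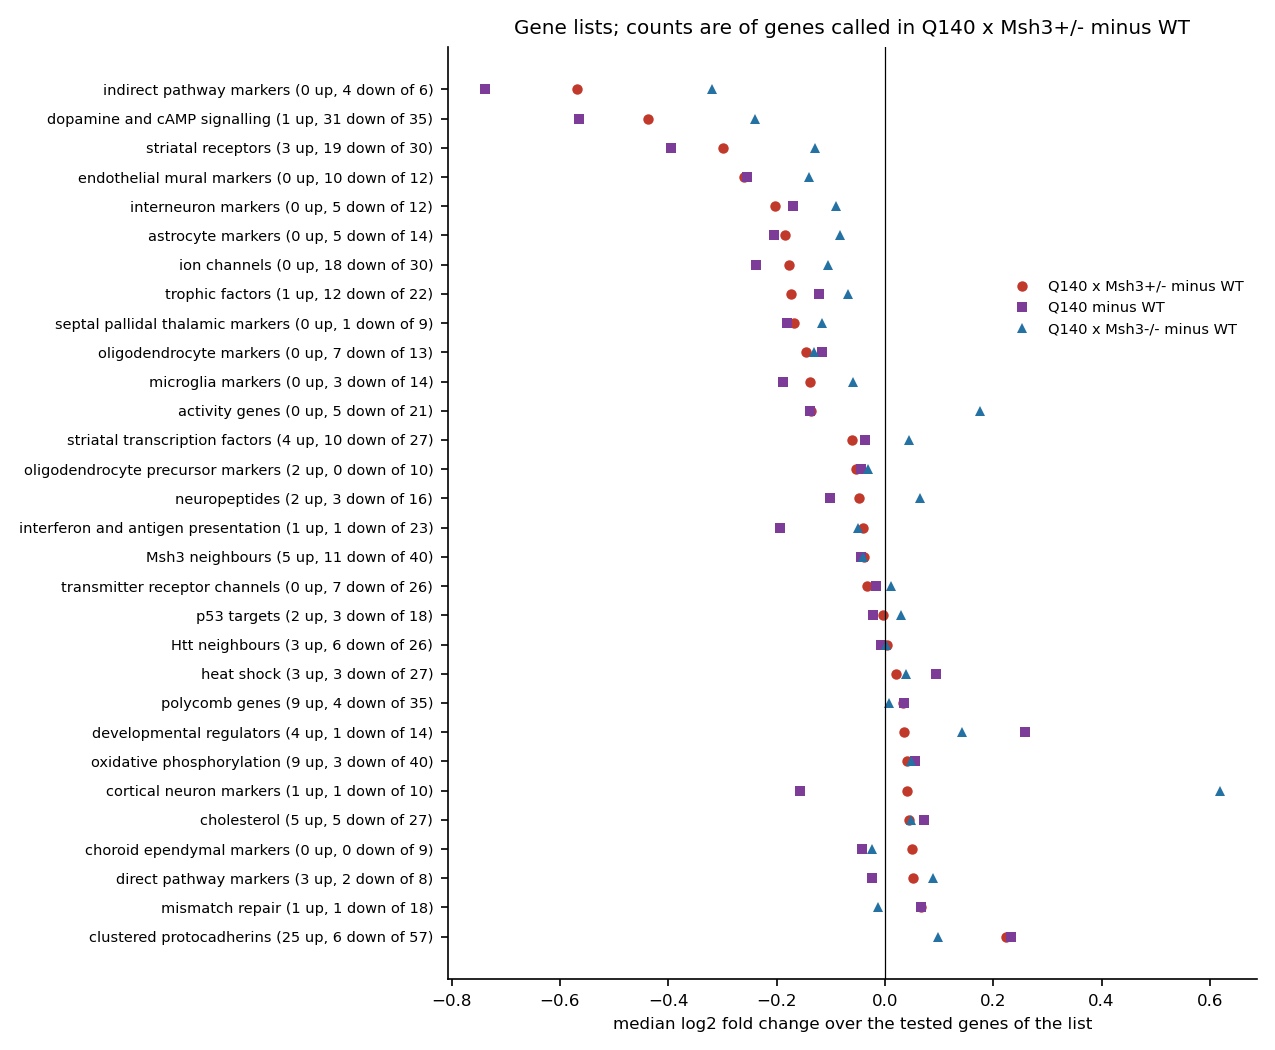
Each row is a gene list and each symbol its median log2 fold change against WT, red circles for Q140 x Msh3+/-, purple squares for Q140 and blue triangles for Q140 x Msh3-/- mice; the row labels count the genes called in Q140 x Msh3+/- minus WT. Indirect-pathway markers (-0.57), dopamine and cAMP signalling (-0.44) and striatal receptors (-0.30) have the lowest red medians, and the clustered protocadherins (0.22) the highest.

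Medians of some of these lists were deeper in Q140 mice and shallower in Q140 x Msh3-/- mice. For dopamine and cyclic nucleotide signalling the medians were -0.44 in Q140 x Msh3+/-, -0.565 in Q140 and -0.24 in Q140 x Msh3-/- mice, each minus WT. For receptors they were -0.30, -0.40 and -0.13 in the same order of groups, and for ion channels -0.18, -0.24 and -0.11. Other lists did not have that order: the medians of transcription factors were -0.061 in Q140 x Msh3+/- and -0.036 in Q140 mice, those of glutamate and GABA receptor subunits -0.034 and -0.016, and those of trophic signalling -0.17 and -0.12. These medians share the WT libraries and are a description.

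The 12 largest falls by rule, taken among called genes whose mean log2 CPM over the 48 libraries reached 1, were led by Gpx6. Gpx6, a glutathione peroxidase, had 1.07, 2.44 and 4.08 CPM in Q140 x Msh3+/- mice and 8.42, 10.9 and 14.4 CPM in WT mice (-2.15, SE 0.191, adjusted p = 6.15e-12). Ddit4l, an inhibitor of mTOR signalling, had 7.95, 10.6 and 13.4 CPM in Q140 x Msh3+/- mice and 33.1, 37 and 40.8 CPM in WT mice (-1.77, SE 0.11, adjusted p = 1.69e-16). In both genes all 8 mice lay well below WT. The membrane transporter Slc4a11 followed with -1.75 (SE 0.146), then Sec14l3 (-1.59), Phex, a membrane endopeptidase (-1.58), Cpne9, a copine (-1.53), Serpinb1b (-1.44), Clspn, the replication checkpoint adaptor claspin (-1.28), Cyp2a5 (-1.26), the transcript Abhd11os (-1.26), Mas1 (-1.25) and Plk5, a polo-like kinase (-1.25). Cyp2a5 was the single gene of the 12 in which the groups overlapped (1.3 to 3.56 CPM in Q140 x Msh3+/- mice, 3.47 to 6.99 CPM in WT mice).

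The 12 largest rises were led by Tmc3, a member of the transmembrane channel-like family, with 3.87, 4.62 and 6.46 CPM in Q140 x Msh3+/- mice and 1.1, 1.66 and 2.47 CPM in WT mice (1.61, SE 0.142, adjusted p = 4.01e-13). Sfmbt2, a Polycomb group protein with MBT repeats, had 5.69, 8.99 and 10.4 CPM in Q140 x Msh3+/- mice and 1.81, 2.68 and 3.77 CPM in WT mice (1.60, SE 0.139, adjusted p = 8.01e-13). Rprm, a p53-inducible cell cycle inhibitor, had 9.79, 12.1 and 13.2 CPM in Q140 x Msh3+/- mice and 3.78, 4.46 and 5.5 CPM in WT mice (1.35, SE 0.115, adjusted p = 3.2e-13). None of these 3 genes had a Q140 x Msh3+/- mouse within the WT range. Msh3 itself, the desmoglein genes Dsg2 (1.36) and Dsg1c (1.18), Nts, Ipcef1 (1.11), Greb1l (1.05), cardiac troponin T gene Tnnt2 (1.01) and the noncoding Phf2os1 (1.08) were also among them. Dsg2 and Dsg1c overlapped between the groups. Phf2os1 had 11 CPM in the Q140 x Msh3+/- female replicate 1 and lost its call without that library (0.75, adjusted p = 0.087, against 0.00508 to 0.263 over its other alternatives).

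Set beside the other Q140 groups, these leading genes differed in how near they lay to Q140 mice. Gpx6 had a median of 2.44 CPM in Q140 x Msh3+/-, 0.978 CPM in Q140, 4.85 CPM in Q140 x Msh3-/- mice and 10.9 CPM in WT mice. Directly against Q140 mice it was higher in Q140 x Msh3+/- mice by 1.12 on the log2 scale (SE 0.221, adjusted p = 0.0035). Abhd11os (1.15), Sec14l3 (0.91), Ddit4l (0.62), Slc4a11 (0.62) and Mas1 (0.60) were also called higher than in Q140 mice. The other 6 large falls were not, with Clspn at 0.11, Plk5 at 0.11, Serpinb1b at 0.26, Cpne9 at 0.33, Phex at 0.38 and Cyp2a5 at 0.41.

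Of the 12 large rises, Sfmbt2 was called lower than in Q140 mice (-0.74, adjusted p = 0.000792), and Msh3 was called higher (1.30). The remaining 10 were not called in that comparison. Rprm had a median of 12.1 CPM in Q140 x Msh3+/-, 10.5 CPM in Q140, 9.75 CPM in Q140 x Msh3-/- mice and 4.46 CPM in WT mice, so all 3 Q140 groups lay well above WT. Nts had 4.98, 4.68, 4.59 and 2.06 CPM in the same order of groups. A call that is missing here does not show equal levels: for Rprm the difference from Q140 was 0.10 with an SE of 0.11.

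Promoter windows of 3 genes are shown, for Gpx6, the largest of the 12 falls taken by rule, and for Sfmbt2 and Onecut1, a pair of genes that rose from a low level. They run from 250 bases before to 50 after the start, in RefSeq's annotation of GRCm38.p6, with each CG dinucleotide in capitals. Of the 120 genes named by rule, 87 had such a window.
Gpx6, chr13:21311953-21312252, plus strand: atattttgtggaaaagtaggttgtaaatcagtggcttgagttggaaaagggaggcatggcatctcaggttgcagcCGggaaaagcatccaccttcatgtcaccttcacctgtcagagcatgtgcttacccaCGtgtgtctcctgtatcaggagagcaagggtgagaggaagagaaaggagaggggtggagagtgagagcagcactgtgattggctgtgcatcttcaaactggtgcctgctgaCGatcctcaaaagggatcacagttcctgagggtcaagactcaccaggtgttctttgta
Sfmbt2, chr2:10370201-10370500, plus strand, the first of 2 starts listed: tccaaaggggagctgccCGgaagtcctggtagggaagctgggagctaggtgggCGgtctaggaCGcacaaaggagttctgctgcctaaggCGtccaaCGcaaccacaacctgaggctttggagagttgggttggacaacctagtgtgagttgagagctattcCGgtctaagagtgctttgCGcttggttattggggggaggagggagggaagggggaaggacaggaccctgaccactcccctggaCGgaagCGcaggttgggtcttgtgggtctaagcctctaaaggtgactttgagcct
Onecut1, chr9:74861671-74861970, plus strand: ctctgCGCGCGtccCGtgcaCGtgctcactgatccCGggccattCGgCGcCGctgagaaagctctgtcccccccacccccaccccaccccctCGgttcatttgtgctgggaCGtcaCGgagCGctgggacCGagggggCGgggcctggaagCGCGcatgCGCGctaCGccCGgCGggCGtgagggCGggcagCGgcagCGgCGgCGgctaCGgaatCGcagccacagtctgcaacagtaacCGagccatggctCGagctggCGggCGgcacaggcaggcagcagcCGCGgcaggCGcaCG
The letters CG were counted on the plus strand, where they read the same on the other strand. The windows hold 3 CG in Gpx6, 9 in Sfmbt2 and 38 in Onecut1. The window of Ddit4l, another of the 12 falls, is not printed and holds 14 CG, more than that of Sfmbt2. Over all 27025 windows in the table the median is 7 (quartiles 3 to 21), and 4.78% have at least as many as Onecut1. Over the first windows of 12463 genes tested the median is 19 (quartiles 10 to 28). Methylation and factor binding were not measured.

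Developmental regulators that adult striatum keeps low were detected in Q140 x Msh3+/- mice at levels far above WT in a few cases. Of 35 genes listed only 14 passed the filter on low counts; 4 of these rose and 1 fell, and a gene that passed only because it is high in a Q140 group had to differ. Onecut1, a cut-homeobox factor, had 0.245, 0.853 and 1.4 CPM (lowest, median, highest) in Q140 x Msh3+/- mice and 0, 0.0199 and 0.0612 CPM in WT mice. In counts this was 361 over 8 Q140 x Msh3+/- libraries against 7 over 8 WT libraries, a ratio of 51.3 (95% exact interval 24.7 to 129, counting error only). In Q140 mice the count was 1180 and in Q140 x Msh3-/- mice 24, for ratios to the same 7 WT counts of 167 (80.6 to 415) and 3.45 (1.44 to 9.49).

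Wt1, a zinc finger factor of kidney and gonad development, had 597 counts in Q140 x Msh3+/- and 21 in WT mice, a ratio of 28.3 (18.3 to 46). Its counts were 1861 in Q140 and 85 in Q140 x Msh3-/- mice. Both genes lay lower in Q140 x Msh3+/- than in Q140 mice in the direct test (Onecut1 -1.70, adjusted p = 0.00165; Wt1 -1.61, adjusted p = 0.0149). Sox11, a SOX factor of immature neurons, had 25.3, 29.4 and 44.6 CPM in Q140 x Msh3+/- mice and 14.2, 16.8 and 20.9 CPM in WT mice (0.88), with Q140 x Msh3+/- female replicate 1 at the top. Emx2os, the antisense partner of the cortical factor Emx2, rose (0.62), while Emx2 itself had 0.0087 and was not called. The counting's strand setting is not given in the sources used here, so reads of the pair may be mixed.

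Polycomb group genes, whose proteins keep such regulators silent in chromatin, changed in part. Of 35 genes 9 rose and 4 fell (37.1% called, against 22.1% of all genes). Total counts gave 17 higher and 1 lower, beside 5100 higher and 1248 lower among all genes tested. Beside Sfmbt2, the chromobox gene Cbx8 rose. Cbx8 had 9.8, 13.2 and 16.5 CPM in Q140 x Msh3+/- mice and 5.24, 6.56 and 8.07 CPM in WT mice (0.96, SE 0.093, adjusted p = 8.48e-12). The groups did not overlap. Changes in the core subunits were small: Bmi1 (0.19), Rnf2 (0.19) and Eed (0.17) rose, and Ezh2 (-0.14), Suz12 (0.07) and Ring1 (-0.09) were not called. E130012A19Rik, a cofactor of the complex around Ezh2 also named Epop, fell (-0.79).

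The clustered protocadherins, neuronal surface proteins chosen from tandem promoters, rose more often than they fell. Of 57 tested, 25 rose (43.9%, against 10.8% of all genes), 6 fell and 26 were not called, with a median log2 fold change of 0.22 against 0.0084 over all genes; total counts gave 33 higher and 2 lower. The rises were led by Pcdhb3 (0.81), Pcdhb2 (0.75) and Pcdhb9 (0.58) of the beta cluster, with Pcdhga2 (0.52) and Pcdha3 (0.50) from the other clusters. Pcdhb9 had 21.7, 23.9 and 26.1 CPM in Q140 x Msh3+/- mice and 14.4, 15.4 and 17.5 CPM in WT mice, without overlap. Pcdhb8 (-0.61) fell, as did Pcdhga7 (-0.23) and Pcdhga6 (-0.22). In 11 of the 57, all among the 25 that rose, every Q140 x Msh3+/- mouse was above every WT mouse, against 1.93% of all genes tested. The members share near-identical stretches and overlapping exons, so the authors' counting could have split reads between them. Median log2 fold changes against WT were 0.22 in Q140 x Msh3+/-, 0.23 in Q140 and 0.10 in Q140 x Msh3-/- mice.

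Further pathways were listed as well. Of 22 genes of trophic signalling 12 fell and 1 rose (7 and 1 with total counts), 59.1% called against 22.1% of all genes. The activin antagonist Fst (-0.62), the activin subunit Inhba (-0.51), the activin receptor Acvr1c (-0.51) and the neurotrophin receptors Ntrk3 (-0.35) and Ntrk2 (-0.20) fell, and Acvr2a (0.32) rose. Fst and Inhba were called higher than in Q140 mice. Bdnf (0.11) was not called. Of 18 genes of mismatch and other DNA repair, the targeted Msh3 and Ercc6 (-0.13) were called (11.1%, against 22.1% of all genes). Ercc6 and Fan1 are on this list without being mismatch repair genes. Msh6 (0.06) and Fan1 were not called. Total counts gave 6 calls, all higher. Ercc6 lost its call without WT female replicate 1 (-0.11), WT male replicate 1 (-0.12) or WT male replicate 3 (-0.11).

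Counts in 3 housekeeping groups turned with the scaling. Subunits of the respiratory chain were called at 12 of 40 genes (30%, against 22.1% of all genes), 9 higher and 3 lower. With total counts 27 were higher and none lower, beside 5100 higher and 1248 lower among all genes tested. The largest change was Cyc1 at 0.17. Heat shock genes gave 3 higher and 3 lower among 27, a share of 22.2% against 22.1% of all genes, with the inducible Hspa1a at 0.48. Total counts gave 10 higher and none lower, and without Q140 x Msh3+/- female replicate 1 there were 4 higher and 1 lower. Cholesterol genes gave 5 higher and 5 lower among 27 (37% called, against 22.1% of all genes), from Apoe (-0.23) to Tm7sf2 and Fdps (0.22 each). Total counts gave 11 higher and 2 lower. Interferon and antigen presentation genes were called at 2 of 23 (8.7%, against 22.1% of all genes), 1 higher and 1 lower. Ifi27 fell (-0.22), and lost its call without WT female replicate 2 (-0.15). Among 18 p53 pathway genes 5 were called (27.8%, against 22.1% of all genes). The receptor gene Eda2r rose (0.74), Gadd45a (-0.70), Plk2 (-0.21) and Sesn1 (-0.12) fell, and Cdkn1a (-0.20) was not called. Trp53 rose (0.11), but had values of 0.09 to 0.10 and no call without any of the Q140 x Msh3+/- replicates F1, M1 or M4 or of the WT replicates F3, M3 or M4.

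Another comparison, which shares no library with the one above, covers the same genes. Q140 minus Msh3+/- compares other Q140 mice with other mice lacking Q140, and called 6396 genes (32.4%). Of its 3360 higher genes 1632 were also higher in Q140 x Msh3+/- minus WT, which is 48.6% of its list and 76.8% of the 2126 higher genes here; 1 was called in the opposite direction. Of its 3036 lower genes 1740 were also lower, 57.3% of that list and 77.9% of the 2234 here, with 3 called the other way. Over all genes tested, 10.8% were higher and 11.3% lower in Q140 x Msh3+/- minus WT. The higher genes of Q140 minus Msh3+/- had a median log2 fold change of 0.13 in Q140 x Msh3+/- minus WT, against 0.20 in the comparison that chose them. Their lower genes had a median of -0.19, against -0.30. The values of 0.20 and -0.30 come from the comparison that chose these genes.

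**Figure D4:**
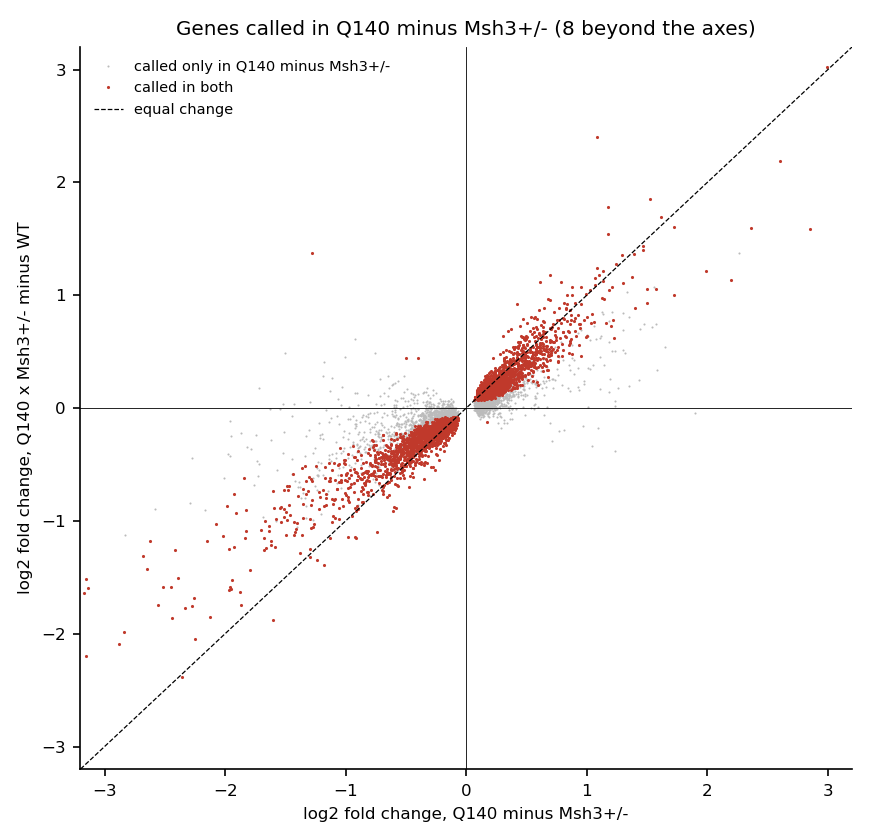
Each point is a gene called in Q140 minus Msh3+/- (6396 genes, 8 beyond the axes), with its log2 fold change there on the horizontal axis and in Q140 x Msh3+/- minus WT on the vertical axis; red genes were called in both, and the dashed line marks equal change. Of the genes higher on the horizontal axis 94.9% were also above 0 on the vertical axis, and of the lower genes 95.4% were below it.

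The mice without any Msh3 allele allow the same check from the other side. Q140 x Msh3-/- minus Msh3-/- called 1549 genes (7.86%), 791 higher (4.01%) and 758 lower (3.84%), again from libraries not used in Q140 x Msh3+/- minus WT. Of its 791 higher genes 556 were higher here as well (70.3% of that list, against 10.8% of all genes tested, and 26.2% of the 2126). None was called lower. Of its 758 lower genes 585 were lower here (77.2% of that list, against 11.3% of all genes tested, and 26.2% of the 2234), and 1 was called higher. Those lower genes had a median of -0.32 in Q140 x Msh3+/- minus WT and of -0.25 in Q140 x Msh3-/- minus Msh3-/-; the higher ones had 0.17 and 0.18.

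Genes close to the altered Msh3 locus were listed apart. Within 5 Mb of Msh3, 59 other genes were tested; 7 rose and 12 fell, 32.2% called against 22.1% of all genes. The same window around Htt held 148 genes, of which 24 rose and 19 fell (29.1%). The called genes there ran from Plb1 (-0.97) to Gm2420 (4.51, SE 0.355, adjusted p = 1.01e-14). Gm2420 was at 4.53 in Q140 and 4.06 in Q140 x Msh3-/- mice, each minus WT. In Msh3+/- minus WT Gm2420 was at -2.89 and not called (adjusted p = 0.938). The cause was not tested. Cmya5, which encodes the muscle protein myospryn and lies 0.809 Mb from Msh3, had 8.99, 10.8 and 13.5 CPM in Q140 x Msh3+/- mice and 15.7, 17 and 17.9 CPM in WT mice (-0.62, SE 0.068, adjusted p = 1.77e-10). Its log2 fold changes against WT were -0.35 in Q140, -1.03 in Q140 x Msh3-/- and -0.32 in Msh3+/- mice, and it was called lower in Q140 x Msh3+/- than in Q140 mice (-0.28). Rasgrf2 (-0.64 here, -0.57 in Msh3+/- minus WT) and F2r (0.45 here, 0.52 in Msh3+/- minus WT) had values of the same sign without Q140; in Msh3+/- minus WT F2r was called, but Rasgrf2 (adjusted p = 0.186) and Cmya5 (adjusted p = 0.107) were not. Homer1 (-0.68 here) and Iqgap2 (-0.47 here), by contrast, had -0.08 and -0.12 in Msh3+/- minus WT.

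**Figure D5:**
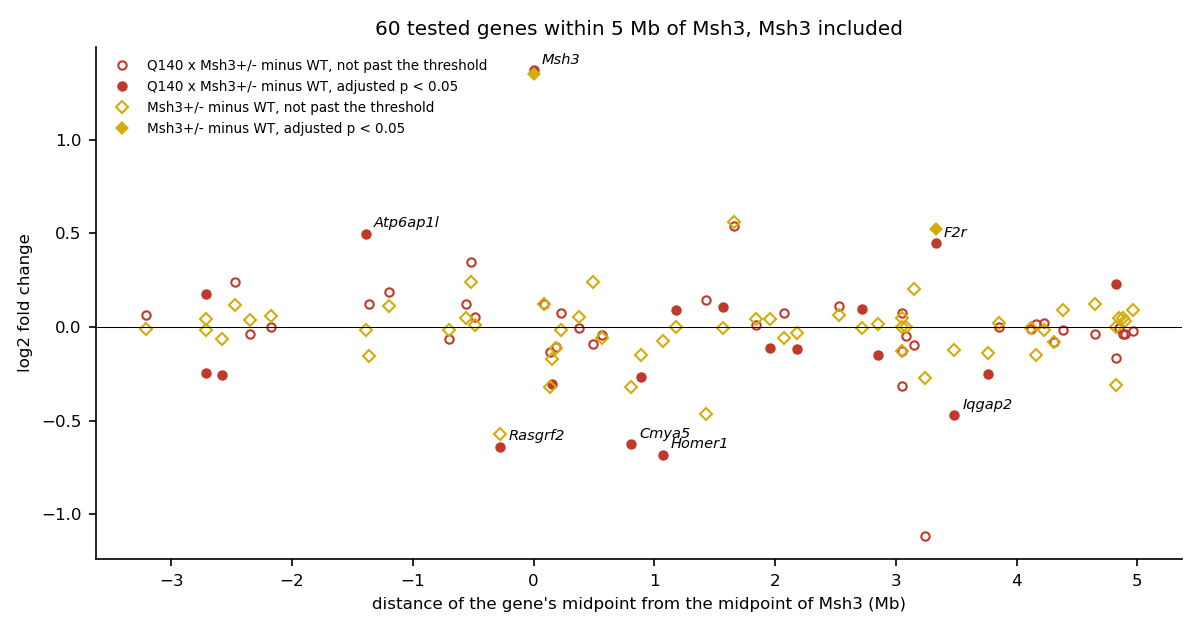
Each symbol is a tested gene, placed by the distance of its midpoint from that of Msh3 in Mb, with its log2 fold change in Q140 x Msh3+/- minus WT (red circles) and Msh3+/- minus WT (yellow diamonds); filled symbols passed the threshold. Msh3 and F2r are filled in both colours, while Cmya5 and Rasgrf2 are filled in red only.

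The size of the effect was compared between the sexes. The effect in females minus that in males was called at 0 of 19714 genes by edgeR (smallest adjusted p = 0.978), and 885 had an unadjusted p under 0.05. Within each sex of the same fit, 2033 genes were called in females (907 higher, 1126 lower) and 2298 in males (988 higher, 1310 lower). Penk was at -1.02 in females and -1.10 in males. Gpx6 was at -1.83 in females and -2.52 in males, and Sfmbt2 at 1.30 in females and 1.90 in males, differences with unadjusted p of 0.0646 and 0.0302 and adjusted p of 0.978 each.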

How the data were processed

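RNA of whole striatum from separate mice was sequenced as stranded TruSeq libraries, per the labels' protocols. The authors deposited whole-number counts per gene for 48795 genes. Reads were handled with HTSeq 0.12.3, SAMtools 1.10 and STAR 2.7.5c on build GRCm38, per the submitters' processing notes. The sources used here do not state the annotation release, strand setting or filters. A deposited table of normalized values was not used. The count columns were matched to samples by name, 27 symbols turned into dates were restored from their identifiers, and coordinates come from GENCODE M21.

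Counts were tested with edgeR 4.0.16 in R 4.3.3: filterByExpr by genotype (minimum count 10, 29081 genes filtered out), TMM scaling, robust dispersions and quasi-likelihood tests. The model had genotype and sex as terms over all 48 libraries, leaving 41 residual degrees of freedom. Benjamini-Hochberg adjustment ran over the 19714 genes that passed the filter, and a call is an adjusted p under 0.05. Fold changes are log2. Levels are TMM-scaled CPM, given as lowest, median and highest of 8 mice, and are compared within a gene only. Library totals of 38.9 M to 60.9 M limit precision for genes with few counts, whose ratios carry exact intervals for counting error. The p-values test a group difference against the spread between mice within groups, estimated over all 48 libraries.

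The groups and gene lists were chosen with earlier results of these data known, so lists have no test of their own. The list of clustered protocadherins was matched by symbol and includes the Pcdhga and Pcdhgb genes. Named genes were Msh3, Htt, 9 striatal genes with Onecut1 and Sfmbt2, the 12 largest rises and falls (mean log2 CPM 1 or above), and up to 4 called members of each list with the smallest p, 120 in all. A few genes are not reported here. Further list members are given as examples, chosen after their values were seen. The tests were tried on simulated counts first. Alternatives were other scalings (RLE, total counts), DESeq2 1.42.0, other filters, fewer libraries, no sex term, a replicate block, each sex alone and each of the 16 libraries left out.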

Additional observations from a re-analysis of the deposited data

Results flagged for a closer look

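For 117 of the genes named by rule, each group of 8 mice was searched, on the log2 scale, for a single mouse far from the other 7. Chance alone flags about 1 in 20 groups, and 17 of 234 were found. All values are TMM-scaled CPM, and each of these genes was called between the groups.

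Among Q140 x Msh3+/- mice, female replicate 1 was apart in 3 genes: Sox11 at 44.58 (others 25.29 to 31.62), Egr3 at 71.1 (others 83.08 to 89.92) and Th at 4.485 (others 5.781 to 7.163). This mouse also had the highest score on the first residual component. Female replicate 4 was apart in the lowered genes Abhd11os at 6.916 (others 3.913 to 5.069) and Mas1 at 4.253 (others 2.373 to 3.058), where it lay nearer WT, and in Cyp46a1 at 291.5 (others 255.8 to 268.1). Chrm4 was lowest in male replicate 4 at 49.75 (others 58.44 to 62.74). Hspa4 was highest in female replicate 3 at 216 (others 192.8 to 201.9), and Pcdhb3 in female replicate 2 at 10.47 (others 6.59 to 8.141).

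Among WT mice, female replicate 2 was apart in 4 genes: C1qb at 68.35 (others 43.6 to 52.64), C1qc at 53.41 (others 37.83 to 41.88), Ifi27 at 16.24 (others 9.821 to 12.44) and, on the low side, Homer1 at 180.1 (others 224 to 265.4). The calls of C1qb, C1qc and Ifi27 were lost without it. Apoe was high in WT female replicate 4 at 1345 (others 1075 to 1185). Grin1 at 779.9 (others 707.4 to 739) and Ndufs3 at 49.13 (others 44.37 to 46.09) were high in WT male replicate 4. Drd2 was low in WT male replicate 1 at 273.3 (others 294.9 to 309.2), which was still above every Q140 x Msh3+/- mouse.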

How the results depend on the processing

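The count of 4360 genes lay between 3530 and 4539 with RLE factors, DESeq2, no filter, a minimum count of 50, the 16 libraries alone, no sex term, dispersions not robust, the replicate block or libraries with the common name prefix (3676). Leaving out each library gave 3926 to 4239 genes. Total counts gave 5100 higher and 1248 lower genes, and 12 named genes lost their call. Females alone gave 1671 genes (726 higher, 945 lower) and males alone 2320 (1015 higher, 1305 lower). For Htt the log2 fold change was 0.044 with total counts, opposite in sign to the main value.

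List calls under total counts were 14 for glutamate and GABA receptor subunits, 6 for mismatch and other DNA repair and 8 for trophic factors. They were 10 for heat shock, 27 for oxidative phosphorylation, 1 for interferon genes, 0 for microglia and 4 for oligodendrocytes. Septal, pallidal and thalamic markers gave 0 and Htt neighbours 15. Libraries with the common prefix gave 7 for oxidative phosphorylation and 0 for septal, pallidal and thalamic markers. The 16 libraries alone gave 1 oligodendrocyte precursor marker. Without Q140 x Msh3+/- female replicate 1, an alternative chosen after seeing the data, microglia gave 0, oligodendrocytes 5 and astrocytes 4. The causes were not tested.

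Replicate numbers gave no sign of pairing the mice: deviations of same-numbered mice correlated at -0.117 to 0.0277, and only M2 correlated best with its own number. Shared litters or batches were not tested. The replicate block gave 3530 genes (1689 higher, 1841 lower). The sex difference had 0 calls under the 3 alternatives run (total counts, minimum count of 50, common prefix), with 577 to 872 genes at an unadjusted p under 0.05. Depth limits genes such as Onecut1 and Crh, whose WT or Q140 x Msh3+/- totals are few counts.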

Other observations

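Some RNAs encoded in mitochondria were lower: both mitochondrial ribosomal RNAs and 3 of 8 mitochondrial transfer RNAs were called lower, against 11.3% of all genes tested. The share of counts on the mitochondrial genome overlapped between the groups, at 5.88 to 7.09% in Q140 x Msh3+/- mice and 5.79 to 7.65% in WT mice. Of 721 long intergenic noncoding transcripts 91 were called (47 higher, 44 lower, 12.6%), and of 712 antisense transcripts 75 (40 higher, 35 lower, 10.5%), against 26.1% of protein-coding genes. Processed pseudogenes were called at 61 of 1111 (5.49%). The part of count depth in these shares was not tested.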
